A study of Rattus norvegicus with 9 samples.

Results

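The semaphorin, slit and netrin genes encode axon guidance cues and their receptors, and their transcripts were measured here in cultured fibroblasts (Fb) from the rat sciatic nerve and skin. Members were taken by symbol: every gene whose symbol starts with Sema or Plxn, together with Nrp2, Slit1 to Slit3, Robo1 to Robo4, Ntn1, Ntn3, Ntn4, Dcc, Neo1, Unc5a to Unc5d, Rgma and Rgmb. This gave 48 of the 32883 genes in the table. The default expression filter of edgeR kept 41 of them among 13273 tested genes, and 7 were not tested.

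The study compared Fb from the epineurium, the outer connective tissue sheath of a nerve (Fb-Epn), from the parenchyma, the nerve tissue inside that sheath (Fb-Par), and from abdominal skin (Fb-Skn), with 3 samples of each type and 9 libraries in all. All came from male WT rats at 10 weeks of age with no treatment, the nerve types from the sciatic nerves of 2 rats and the skin type from 1 other rat. Tissues were separated by hand with forceps and dissociated with collagenase and trypsin, and the adherent cells were grown in medium with serum and passaged 1 time after 3 to 4 days. The 3 samples of a type therefore cannot be 3 animals, the sources do not say whether they were separate cultures, and p-values measure only the spread between these samples. Between the nerve types and Fb-Skn, the tissue, the rat and the body site cannot be told apart. Cells were not sorted by a marker, and Fb-Par can hold both perineurial and endoneurial cells.

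Total counts ranged from 10084584 to 12310506 per library, and replicate samples varied around their type mean with a common coefficient of 8.25% in edgeR. Levels are given as TPM, a transcript share scaled for gene length and library size, and differences as log2 fold changes on counts. Marker lists for other cell types differed between the types. Of 8 Schwann cell markers, Sox10, Erbb3 and Cdh19 had 0 counts in all Fb-Skn libraries, and the summed TPM of the list was 191 to 202 in Fb-Epn, 254 to 262 in Fb-Par and 11.1 to 13.5 in Fb-Skn. Summed over 6 macrophage and leukocyte markers, TPM was 223 to 250.2 in Fb-Epn, 56.0 to 60.8 in Fb-Par and 18.3 to 20.4 in Fb-Skn, with no marker at 0 in a whole type. Summed over 7 pericyte and smooth muscle markers, of which Rgs5 and Kcnj8 were at 0 in Fb-Skn, it was 108 to 112 in Fb-Epn, 555 to 582 in Fb-Par and 284 to 298 in Fb-Skn. The 6 endothelial markers summed to 15.4 to 16.1, 10.4 to 11.6 and 0.938 to 1.57 TPM across Fb-Epn, Fb-Par and Fb-Skn, with Cdh5, Cldn5 and Emcn at 0 in Fb-Skn and Cldn5 also at 0 in Fb-Par. The 6 perineurial markers summed to 156 to 163, 42.1 to 47.3 and 76.2 to 84.6 TPM in that order, with Lypd2 at 0 in all 9 libraries, Krt19 at 0 in Fb-Epn and Cldn1 at 0 in Fb-Skn. The 8 fibroblast markers, none at 0, summed to 38900 to 39120 TPM in Fb-Epn, 31460 to 32460 TPM in Fb-Par and 39140 to 40260 TPM in Fb-Skn. Keratinocyte and neuron lists stayed under 4.2 TPM in every library, and the skeletal muscle list, with Myod1, Myog and Myf5 at 0 throughout, summed to 9.03 to 10.9, 79.3 to 91.9 and 1.95 to 4.00 TPM. In such bulk samples, fewer cells of a type and less RNA per cell cannot be told apart.

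Guidance cues steer the tips of growing axons. Class 3 semaphorins are secreted and act through neuropilins and plexins, whereas most other semaphorins are held in the membrane and bind plexins directly. Slits are secreted ligands of Robo receptors, and netrins are secreted proteins related to laminins that attract axons through Dcc and its relative neogenin and repel them through Unc5 receptors. In peripheral nerves they are known from axon pathfinding and from the tissue bridge of a cut nerve, where slits and Robos act.

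The guidance genes of the cultured Fb were dominated by a few secreted ligands, and their mix differed by type. Slit3 and Sema3c had the highest levels of the group in all 3 types, and 7 members exceeded a mean of 100 TPM in at least 1 type: Sema3c, Nrp2, Plxnb2, Slit3, Ntn1, Ntn4 and Unc5b. A further 17 tested members had their highest type mean between 10 and 100 TPM, 15 between 1 and 10 TPM, and 2 (Sema3g and Sema4d) under 1 TPM in every type. By mean TPM over the 9 libraries, Slit3 ranked 417 and Sema3c 509 among the 13273 tested genes. Fb-Par had the highest mean TPM for 24 of the 41 tested members (58.5%), against 39.7% of all tested genes, and Fb-Skn had the lowest for 25 (61.0%), against 48.6% of all tested genes. The untested members were Slit1, Robo3, Robo4 and Unc5d, with 0 counts in all 9 libraries, Dcc with at most 1 count, Unc5a with at most 4 and Sema3a with at most 14. A count of 0 allows up to 3 counts, or 0.244 to 0.297 CPM (counts scaled to library size), so low levels of these genes were not detectable at this depth.

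**Figure D1:**
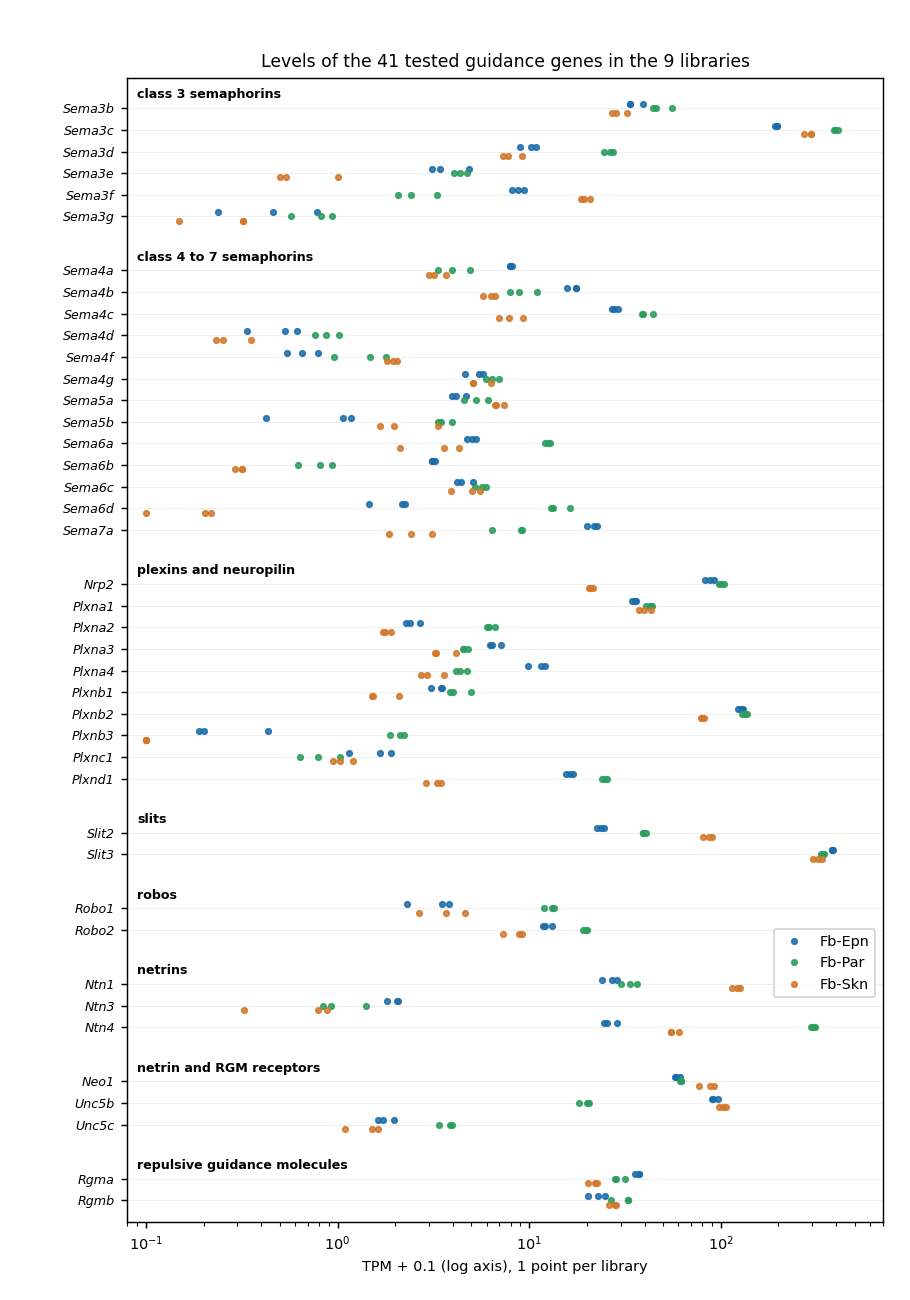
TPM of the 41 tested members in each of the 9 libraries, grouped by role, on a log axis after adding 0.1. Points are libraries (blue Fb-Epn, green Fb-Par, orange Fb-Skn); Slit3 and Sema3c lie farthest to the right, and the 3 libraries of a type lie close together for all but the members at the lowest levels.

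Epineurial and skin Fb differed in 30 of the 41 tested members (73.2%) at an adjusted p under 0.01, against 46.0% of all tested genes. Of the 41, 18 (43.9%) were higher in Fb-Epn, where the share over all genes was 24.1%, and 12 (29.3%) were lower, where it was 21.9%. DE genes, for which the log2 fold change also had to pass 2 or -2 (the DE limit), numbered 8 of the 41 (19.5%). The share over all genes was 8.45%. Of the 41 members, 6 were DE and higher (all genes 6.26%) and 2 DE and lower (all genes 2.19%). The median log2 fold change of the tested members was 0.42, and that of all tested genes was 0.00. The DE members higher in Fb-Epn were Sema3e, Sema6b, Sema6d, Sema7a, Plxnb3 and Plxnd1, and those lower were Slit2 and Ntn1. Plxnb3 is counted here on its fitted value; against a floor of 3 counts in each skin library its bound was 1.55-fold, under the DE limit, and 7 DE members are left without it.

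Between Fb-Par and Fb-Skn, 28 members (68.3%) passed the adjusted p, against 47.4% of all tested genes. Here 22 of 41 (53.7%) were higher in Fb-Par (all genes 24.1%) and 6 (14.6%) were lower (all genes 23.3%). DE members numbered 10 of 41 (24.4%), against 8.54% of all genes. Sema3e, Sema4c, Sema6d, Nrp2, Plxnb3, Plxnd1 and Ntn4 were higher, 7 of 41 members (all genes 5.88%). Sema3f, Ntn1 and Unc5b were lower, 3 of 41 members (all genes 2.67%). The median log2 fold change was 0.58 for the members and -0.01 for all tested genes.

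Between Fb-Epn and Fb-Par, 31 members (75.6%) passed the adjusted p, against 41.1% of all tested genes. Of the 41 tested, 11 (26.8%) were higher in Fb-Epn (all genes 21.3%) and 20 (48.8%) were lower (all genes 19.8%). DE members numbered 7 of 41 (17.1%), against 6.41% of all genes. Sema6b and Unc5b were higher in Fb-Epn, 2 of 41 members (all genes 4.08%). Sema5b, Sema6d, Plxnb3, Robo1 and Ntn4 were lower, 5 of 41 members (all genes 2.33%). The median log2 fold change was -0.32 for the members and 0.00 for all tested genes. The 3 comparisons share libraries in pairs and are not independent of each other. The median of the mean count per library was 182 for the tested members and 228 for all tested genes. Of the tested members, 33 were above the filter in every library of all 3 types, whereas Sema4f, Sema5b, Sema6b and Sema6d were above it throughout in 2 types, Sema4d, Plxnb3 and Ntn3 in 1 type and Sema3g in none. A member that entered the test only through the type where it is high is favored to differ. The counts were therefore repeated, after the data were seen, over the genes above the filter in every library. Of these 33 members, 24 (72.7%) passed between Fb-Epn and Fb-Skn, against 45.1% of the 11268 such genes. Between Fb-Par and Fb-Skn 24 (72.7%) passed, against 46.8% of the genes, and between Fb-Epn and Fb-Par 26 (78.8%), against 40.8%. DE members among them numbered 5 (15.15%), 8 (24.24%) and 3 (9.09%) in that order, against 2.72%, 3.18% and 2.96% of the genes. The median log2 fold changes of the 33 were 0.21, 0.38 and -0.29.

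**Figure D2:**
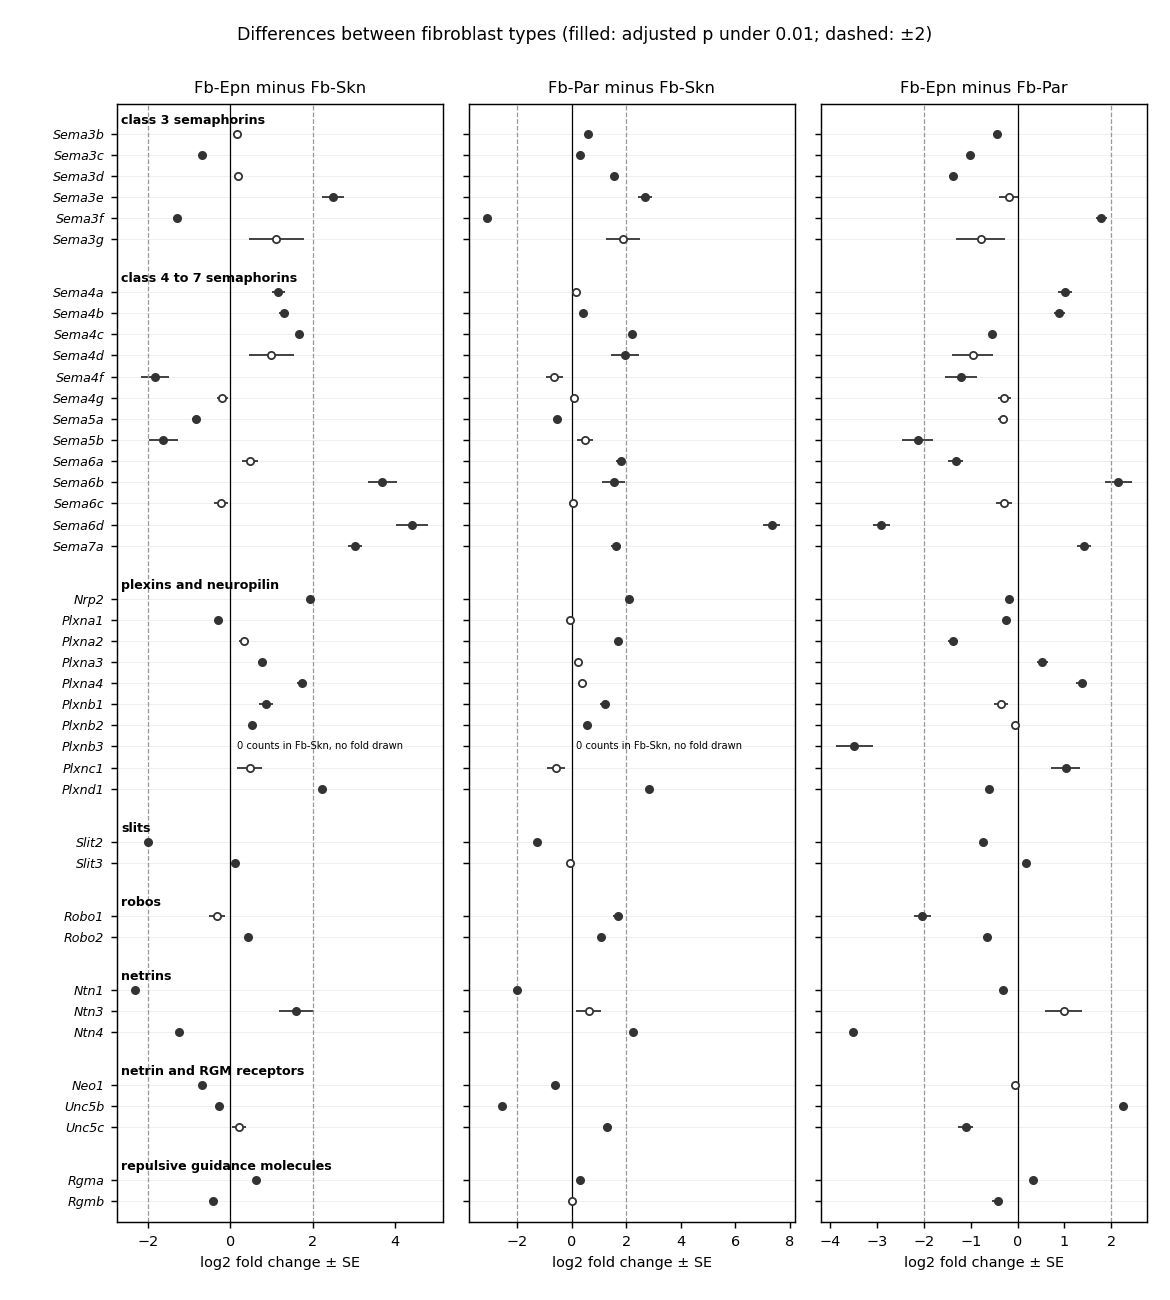
Log2 fold changes from edgeR with standard errors (SE) derived from its F statistic for the 41 tested members in the 3 comparisons, grouped by role. Filled points have an adjusted p under 0.01, dashed lines mark log2 fold changes of -2 and 2, and no fold is drawn for Plxnb3 against Fb-Skn, where it had 0 counts; Sema6d lies farthest from 0 among the drawn points of the middle panel, Fb-Par minus Fb-Skn.

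The members that were DE in Fb-Par against both other types were Sema6d, Plxnb3, Ntn4 and Unc5b. Plxnb3 was above the filter in Fb-Par alone, which favors such calls, so its place among them supports nothing. The 250 bases before the annotated starts of these 4 are shown because that pattern chose them. RefSeq lists these sequences on the rat assembly GRCr8, which is not the rn6 assembly of the counts. Capitals mark GGGCGG, the core of the GC box bound by Sp factors, on either strand.
Ntn4 (chr7:30073387-30073636, plus strand): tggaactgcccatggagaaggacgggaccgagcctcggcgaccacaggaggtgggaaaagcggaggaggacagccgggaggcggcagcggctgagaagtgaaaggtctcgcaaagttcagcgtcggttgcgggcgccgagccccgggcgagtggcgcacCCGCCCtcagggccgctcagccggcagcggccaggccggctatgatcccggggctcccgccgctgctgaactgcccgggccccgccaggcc
Sema6d (chr3:132337106-132337355, plus strand): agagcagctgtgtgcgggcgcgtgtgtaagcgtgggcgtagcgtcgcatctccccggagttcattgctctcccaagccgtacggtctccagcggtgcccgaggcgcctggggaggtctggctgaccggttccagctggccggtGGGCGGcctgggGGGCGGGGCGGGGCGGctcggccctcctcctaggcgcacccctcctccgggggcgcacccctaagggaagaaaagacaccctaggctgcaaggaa
Unc5b (chr20:29307271-29307520, minus strand): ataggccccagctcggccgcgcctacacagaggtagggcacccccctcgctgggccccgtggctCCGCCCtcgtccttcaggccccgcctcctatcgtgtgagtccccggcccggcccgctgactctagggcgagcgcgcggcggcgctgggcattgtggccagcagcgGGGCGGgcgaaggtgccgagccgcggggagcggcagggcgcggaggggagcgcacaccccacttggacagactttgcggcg
Plxnb3 (chrX:156646624-156646873, plus strand): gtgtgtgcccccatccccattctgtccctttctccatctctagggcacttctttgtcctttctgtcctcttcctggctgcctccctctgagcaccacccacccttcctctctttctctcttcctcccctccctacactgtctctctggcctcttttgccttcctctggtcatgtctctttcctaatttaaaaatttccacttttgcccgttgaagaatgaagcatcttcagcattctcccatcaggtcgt
The first 3 sequences are rich in the dinucleotide CG, with 27, 23 and 30 occurrences, and hold GGGCGG 1, 4 and 2 times. That of Plxnb3 has 2 CG and no GGGCGG. RefSeq places this gene on the plus strand of GRCr8 and the rn6 table of the counts on the minus strand. Plxna3, Robo4 and Sema6b also change strand between the assemblies, and all of these are kept in the member counts below. The median over the 33469 RefSeq promoters was 5 CG, and 30.5% of them held GGGCGG. Of the 48 members, 34 had 1 entry, with a median of 15 CG (0 to 43), and 22 of the 34 held GGGCGG. The other motifs were searched on both strands: TATAAA (the TATA box) was in 0 of 34 member promoters and 12.9% of all, CCAAT in 7 and 34.0%, TGANTCA (bound by AP-1) in 0 and 6.34%, and CACGTG (an E-box) in 3 and 5.59%. So Ntn4 and Unc5b, of which the first was higher and the second lower in Fb-Par than in either other type, both carry a CG-rich sequence with GC boxes, and none of the 4 sequences holds any of the other motifs. These matches describe letters only, and the RNA data do not show use of any of them.

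Among the class 3 semaphorins, the secreted ligands, Sema3c made up most of the transcripts, and Sema3f and Sema3e differed most between types. Sema3c (ENSRNOG00000006526, chr4:14318274-14490446 of rn6, minus strand), a ligand known for cardiovascular and neural patterning, was at 197, 196 and 192 TPM in Fb-Epn, 389.6, 397 and 408 TPM in Fb-Par and 272, 295 and 297 TPM in Fb-Skn. The 3 types did not overlap. It was 2.03-fold lower in Fb-Epn than Fb-Par (log2 fold change -1.02 ± 0.03 SE, adjusted p = 1.2e-21) and 1.63-fold lower than in Fb-Skn (-0.70 ± 0.03, adjusted p = 1e-17), and it was 1.25-fold higher in Fb-Par than Fb-Skn (0.32 ± 0.03, adjusted p = 4.4e-10). The order of the types was that of the summed pericyte and smooth muscle markers, 108 to 112, 555 to 582 and 284 to 298 TPM across Fb-Epn, Fb-Par and Fb-Skn. It was not that of every marker. Of the 7, 4 were called higher in Fb-Epn than Fb-Skn and 3 lower. The part of this list in the result was not tested.

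Sema3f (ENSRNOG00000017704, chr8:116437696-116469915, minus strand), a repellent that signals through neuropilin 2, was lowest in Fb-Par, where Sema3c was highest. It was at 8.66, 8.07 and 9.27 TPM in Fb-Epn, 3.20, 2.32 and 1.97 TPM in Fb-Par and 18.6, 19.2 and 20.7 TPM in Fb-Skn, so that the types did not overlap and Fb-Skn was highest. The level in Fb-Par was 8.59-fold below Fb-Skn (-3.10 ± 0.12, adjusted p = 1.8e-18) and 3.46-fold below Fb-Epn (1.79 ± 0.12 for Fb-Epn minus Fb-Par, adjusted p = 1.1e-12). Sema3c thus stood 166 ± 42.8 times above Sema3f in Fb-Par (mean of ratios of TPM ± SD, n = 3), 22.6 ± 1.81 times in Fb-Epn and 14.8 ± 0.540 times in Fb-Skn. The gene overlaps Gnat1 on the same strand, which had at most 5 counts in a library.

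Sema3e (ENSRNOG00000006631, chr4:17272511-17594598, minus strand), a ligand that binds Plxnd1 directly, was at 3.34, 4.77 and 3.00 TPM in Fb-Epn, 4.24, 4.62 and 3.97 TPM in Fb-Par and 0.91, 0.401 and 0.437 TPM in Fb-Skn. Both nerve types were above every skin library and overlapped each other. The rise over Fb-Skn was 5.64-fold in Fb-Epn (2.50 ± 0.26, adjusted p = 7.3e-09) and 6.45-fold in Fb-Par (2.69 ± 0.26, adjusted p = 1.6e-09), and the nerve types did not differ by the test (-0.19 ± 0.21, adjusted p = 0.46). Of the other class 3 members, Sema3b and Sema3d were highest in Fb-Par, with mean TPM of 35.5, 48.4 and 29.1 for Sema3b and 9.93, 26.0 and 7.97 for Sema3d across Fb-Epn, Fb-Par and Fb-Skn. Both were higher in Fb-Par than in either other type (adjusted p from 4.9e-15 to 0.00023) and neither passed the test between Fb-Epn and Fb-Skn (adjusted p = 0.18 and 0.11). Sema3g had means of 0.394, 0.674 and 0.163 TPM, and it passed no comparison.

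Class 4 to 7 semaphorins, mostly ligands held in the membrane, summed to 99.3 ± 1.95 TPM in Fb-Epn, 112 ± 3.46 TPM in Fb-Par and 44.3 ± 2.93 TPM in Fb-Skn (SD, n = 3). Sema4c (ENSRNOG00000016254, chr9:43129415-43139870, minus strand), a ligand of Plxnb2, had the highest level of the class. It was at 26.9, 27.7 and 28.9 TPM in Fb-Epn, 44.2, 39.2 and 38.5 TPM in Fb-Par and 7.73, 9.19 and 6.88 TPM in Fb-Skn, with no overlap between types. It was 4.62-fold higher in Fb-Par than Fb-Skn (2.21 ± 0.09, adjusted p = 4.9e-19), 3.19-fold higher in Fb-Epn than Fb-Skn (1.67 ± 0.09, adjusted p = 6.3e-16) and 1.45-fold lower in Fb-Epn than Fb-Par (-0.54 ± 0.07, adjusted p = 5.7e-07). A gene on the other strand that overlaps Sema4c had at most 16 counts in a library.

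Sema6d (ENSRNOG00000004812, chr3:116899878-116958050, plus strand), a transmembrane ligand of Plxna1, had at most 4 counts in a skin library. The counts were 42, 75 and 65 in Fb-Epn, 551, 386 and 399 in Fb-Par and 4, 3 and 0 in Fb-Skn. In TPM these were 1.35, 2.14 and 2.07, then 16.3, 13.2 and 12.9, then 0.119, 0.102 and 0. Fb-Par exceeded Fb-Epn 7.53-fold (-2.91 ± 0.18 for Fb-Epn minus Fb-Par, adjusted p = 4.3e-10). Against Fb-Skn the fitted log2 fold changes were 7.33 ± 0.30 for Fb-Par (adjusted p = 1.1e-12) and 4.42 ± 0.39 for Fb-Epn (adjusted p = 4.3e-08), and their size rests on the few skin counts. Sema6a, a relative of the same class, was also highest in Fb-Par, at 12.4 TPM against 4.92 in Fb-Epn and 3.24 in Fb-Skn (adjusted p = 9.6e-08 and 6.1e-10). The order Fb-Par, Fb-Epn, Fb-Skn of Sema6d was shared by several summed marker lists. Schwann cell markers were at 254 to 262, 191 to 202 and 11.1 to 13.5 TPM. Skeletal muscle markers were at 79.3 to 91.9, 9.03 to 10.9 and 1.95 to 4.00 TPM, and neuron markers at 1.64 to 2.26, 1.01 to 1.20 and 0.308 to 0.616 TPM. For these 2 lists the order held for the sums only. Of the 2 muscle markers tested, 1 was called lower and 1 higher in Fb-Epn than Fb-Par. The 1 neuron marker tested did not pass between the nerve types. The part of any of these lists in the result was not tested.

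Sema6b and Sema7a were the members with their peak in Fb-Epn by the widest margin. Sema7a (ENSRNOG00000007687, chr8:62723788-62745868, plus strand), a lipid-anchored semaphorin that promotes axon growth through integrins and binds Plxnc1, was at 20.0, 22.4 and 21.8 TPM in Fb-Epn, 6.26, 9.09 and 8.94 TPM in Fb-Par and 1.75, 2.33 and 3.02 TPM in Fb-Skn. The types were apart in every library. It was 8.25-fold higher in Fb-Epn than Fb-Skn (3.04 ± 0.17, adjusted p = 4.8e-15), 2.67-fold higher than in Fb-Par (1.42 ± 0.15, adjusted p = 2.4e-09) and 3.09-fold higher in Fb-Par than Fb-Skn (1.63 ± 0.18, adjusted p = 9.8e-09). Sema6b (ENSRNOG00000045998, chr9:10941613-10951252, plus strand), a ligand of A-type plexins, was lower, at 3.00, 3.11 and 3.02 TPM in Fb-Epn, 0.521, 0.712 and 0.833 TPM in Fb-Par and 0.191, 0.219 and 0.217 TPM in Fb-Skn, where each library had 4 counts. It was 12.9-fold higher in Fb-Epn than Fb-Skn (3.69 ± 0.35, adjusted p = 3.7e-10) and 4.44-fold higher than in Fb-Par (2.15 ± 0.29, adjusted p = 3.3e-07). Without Fb-Par replicate 1 the difference between Fb-Epn and Fb-Par was 1.98, under the DE limit, and without Fb-Par replicate 3 the difference between Fb-Par and Fb-Skn (1.54 ± 0.41, adjusted p = 0.0021) had an adjusted p of 0.011. The order Fb-Epn, Fb-Par, Fb-Skn of both genes was also that of 2 marker lists. Macrophage and leukocyte markers summed to 223 to 250.2, 56.0 to 60.8 and 18.3 to 20.4 TPM. Endothelial markers summed to 15.4 to 16.1, 10.4 to 11.6 and 0.938 to 1.57 TPM. The part of either list was not tested.

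Sema5b (ENSRNOG00000002238, chr11:68306659-68349238, minus strand), a semaphorin with thrombospondin repeats, had 6 to 18 counts in Fb-Epn, 52 to 63 in Fb-Par and 28 to 51 in Fb-Skn. In TPM it was at 0.972, 0.323 and 1.08, then 3.23, 3.35 and 3.85, then 1.57, 1.86 and 3.25. Fb-Epn was below both other types, 4.39-fold below Fb-Par (-2.13 ± 0.33, adjusted p = 6e-06) and 3.10-fold below Fb-Skn (-1.63 ± 0.35, adjusted p = 0.00025). Without Fb-Epn replicate 2, the library with the lowest value, the difference from Fb-Par was -1.74, under the DE limit. On log2(TPM + 0.1) with limma, the difference from Fb-Skn had an adjusted p of 0.013. Fb-Par and Fb-Skn overlapped and did not pass the test (0.50 ± 0.30, adjusted p = 0.15).

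Sema4a and Sema4b had means of 7.91 and 16.8 TPM in Fb-Epn, and both were higher there than in Fb-Par (3.98 and 9.14 TPM) and Fb-Skn (3.19 and 6.15 TPM), with adjusted p from 2.3e-10 to 1.3e-06. Sema4f and Sema5a were lowest in Fb-Epn, at 0.562 and 4.16 TPM, against 1.31 and 5.21 TPM in Fb-Par and 1.83 and 6.80 TPM in Fb-Skn. Both were lower in Fb-Epn than Fb-Skn (adjusted p = 2.3e-05 and 2.3e-08), Sema4f also passed between the nerve types (adjusted p = 0.0036), and Sema5a did not (adjusted p = 0.011). Sema4d, a semaphorin of lymphocytes and a ligand of Plxnb1, had means of 0.394, 0.784 and 0.179 TPM across Fb-Epn, Fb-Par and Fb-Skn, and it was above the filter only in Fb-Par, where it was highest. Sema4g and Sema6c passed no comparison, with type means of 5.18 to 6.35 and 4.47 to 5.52 TPM.

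The semaphorin receptors were more abundant in both nerve types, and this held for the summed level and for Nrp2 and Plxnd1 above all. Plexins and Nrp2 together summed to 291 ± 10.2 TPM in Fb-Epn, 322 ± 2.33 TPM in Fb-Par and 155 ± 5.55 TPM in Fb-Skn (SD, n = 3). Against Fb-Skn, 7 of the 10 were higher and 1 was lower in Fb-Epn, and 6 were higher in Fb-Par while the other 4 did not pass the test; of all genes, 24.1% were called higher in each. Plxnb3 is among those higher in both. Nrp2 (ENSRNOG00000031232, chr9:69497121-69612087, plus strand), the receptor subunit that binds Sema3f and also vascular growth factors, was at 87.4, 92.2 and 83.0 TPM in Fb-Epn, 104, 97.8 and 99.7 TPM in Fb-Par and 20.4, 21.5 and 20.7 TPM in Fb-Skn. All 6 nerve libraries stood well apart from the 3 skin libraries. The excess over Fb-Skn was 4.34-fold in Fb-Par (2.12 ± 0.05, adjusted p = 2.3e-25) and 3.81-fold in Fb-Epn (1.93 ± 0.05, adjusted p = 2.7e-24), and the nerve types differed 1.14-fold (-0.19 ± 0.04, adjusted p = 0.00035). Ratios of mean TPM ran somewhat larger than these normalized folds, 4.82 and 4.20 for Nrp2.

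Plxnd1 (ENSRNOG00000025209, chr4:147854309-147893992, minus strand), the receptor of Sema3e and of neuropilin-bound class 3 semaphorins, known from vessel patterning, was at 15.4, 16.2 and 16.8 TPM in Fb-Epn, 24.6, 25.4 and 24.0 TPM in Fb-Par and 2.80, 3.20 and 3.35 TPM in Fb-Skn. The 3 types did not overlap. It was 7.16-fold higher in Fb-Par than Fb-Skn (2.84 ± 0.09, adjusted p = 5.2e-22), 4.71-fold higher in Fb-Epn than Fb-Skn (2.24 ± 0.09, adjusted p = 3.5e-19) and 1.52-fold lower in Fb-Epn than Fb-Par (-0.60 ± 0.07, adjusted p = 1.6e-08). Both Plxnd1 and its ligand Sema3e were thus higher in the nerve types than in skin, whereas Nrp2 was higher and its ligand Sema3f lower. Endothelial markers, with which Plxnd1 is often associated, summed to 15.4 to 16.1, 10.4 to 11.6 and 0.938 to 1.57 TPM across Fb-Epn, Fb-Par and Fb-Skn. Both nerve types were above skin, as for Plxnd1, but the order of the nerve types was the reverse of that of Plxnd1. The part of this list was not tested.

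Plxnb3 (ENSRNOG00000061731, chrX:157015305-157028434, minus strand), a receptor of Sema5a, was a transcript of the parenchyma cells at a low level. Its counts were 58, 57 and 63 in Fb-Par, 3, 3 and 10 in Fb-Epn and 0 in each Fb-Skn library. In TPM it was at 1.78, 2.02 and 2.12 in Fb-Par and at 0.101, 0.0889 and 0.331 in Fb-Epn. Against a floor of 3 counts in each skin library, Fb-Par was at least 17.6-fold higher than Fb-Skn. Since Plxnb3 was above the filter in Fb-Par alone, no p is given for its differences from Fb-Par. Fb-Par was 11.2-fold above Fb-Epn (-3.48 ± 0.40 for Fb-Epn minus Fb-Par), and the difference was -4.31 without Fb-Epn replicate 3, which held most of that type's counts. In Fb-Epn, 2 of the 3 libraries were at the floor; edgeR called the difference from Fb-Skn (adjusted p = 0.00039) and limma on log2(TPM + 1) or log2(TPM + 0.1) did not (adjusted p = 0.13 and 0.011). As with Sema6d, the summed Schwann cell, skeletal muscle and neuron marker lists had the same order of types. In Fb-Par, Fb-Epn and Fb-Skn, Schwann cell markers summed to 254 to 262, 191 to 202 and 11.1 to 13.5 TPM. Skeletal muscle markers summed to 79.3 to 91.9, 9.03 to 10.9 and 1.95 to 4.00 TPM. Between the nerve types, however, 1 of the 2 muscle markers tested was higher in Fb-Epn and 1 lower. The 1 neuron marker tested did not pass there. The part of any of these lists was not tested.

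Plxnb2 (ENSRNOG00000007133, chr7:130135464-130151880, minus strand), the receptor of Sema4c, was the most abundant plexin. It was at 131, 128 and 123 TPM in Fb-Epn, 129, 136 and 133 TPM in Fb-Par and 79.1, 81.9 and 79.7 TPM in Fb-Skn. The nerve types overlapped and did not pass the test (-0.05 ± 0.04, adjusted p = 0.24), and both were above Fb-Skn, 1.44-fold in Fb-Epn (0.52 ± 0.04, adjusted p = 2.6e-13) and 1.49-fold in Fb-Par (0.58 ± 0.04, adjusted p = 2.7e-14). The A-type plexins, which transmit class 3 and class 6 signals, divided among the types. Plxna4 had means of 11.1, 4.30 and 2.99 TPM and Plxna3 of 6.50, 4.52 and 3.45 TPM across Fb-Epn, Fb-Par and Fb-Skn, and both were higher in Fb-Epn than in either other type (adjusted p from 6.4e-13 to 0.00026). Plxna2 was higher in Fb-Par, at 6.17 TPM, than in Fb-Epn at 2.35 and Fb-Skn at 1.69 TPM (adjusted p = 7.5e-12 and 1.2e-13). Plxna1, the most abundant of them, was at 35.4, 42.3 and 40.0 TPM and was lower in Fb-Epn than in both others (adjusted p = 1.3e-06 against Fb-Skn and 5.7e-05 against Fb-Par). Plxnb1 was higher in both nerve types (3.25 and 4.17 TPM) than in Fb-Skn (1.61 TPM; adjusted p = 5.4e-05 and 2.4e-07), and Plxnc1, the receptor of Sema7a, was at 1.46, 0.721 and 0.960 TPM and passed only between the nerve types (adjusted p = 0.007).

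Slit3 was high in every type, and Slit2 differed. Slit3 (ENSRNOG00000007377, chr10:20320878-20518518, plus strand), a secreted Robo ligand, was at 381, 383 and 386 TPM in Fb-Epn, 343, 344 and 331 TPM in Fb-Par and 304, 322 and 336 TPM in Fb-Skn. Fb-Epn was above all other libraries, and Fb-Par and Fb-Skn overlapped. The differences were small: Fb-Epn was 1.09-fold above Fb-Skn (0.12 ± 0.03, adjusted p = 0.0013) and 1.14-fold above Fb-Par (0.19 ± 0.03, adjusted p = 5e-06), and Fb-Par against Fb-Skn did not pass the test (-0.07 ± 0.03, adjusted p = 0.052). The sign of this last difference was positive when only library size was used for scaling (0.03).

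Slit2 (ENSRNOG00000003840, chr14:66831848-67170361, minus strand), the best-known axon repellent of the family, was at 24.5, 23.7 and 22.5 TPM in Fb-Epn, 39.4, 39.0 and 40.6 TPM in Fb-Par and 80.9, 90.0 and 86.9 TPM in Fb-Skn, with no overlap. It was 4.01-fold lower in Fb-Epn than Fb-Skn (-2.01 ± 0.04, adjusted p = 4.6e-25), 2.41-fold lower in Fb-Par than Fb-Skn (-1.27 ± 0.04, adjusted p = 1.1e-20) and 1.67-fold lower in Fb-Epn than Fb-Par (-0.74 ± 0.05, adjusted p = 2.1e-14). The first of these differences lay at the DE limit, and it was -1.97 without Fb-Epn replicate 3 and -1.98 without Fb-Skn replicate 2. Slit3 transcripts were 16.3 ± 0.819 times those of Slit2 in Fb-Epn, 8.57 ± 0.355 times in Fb-Par and 3.73 ± 0.145 times in Fb-Skn (mean of ratios of TPM ± SD, n = 3). The summed slit level was 407 ± 1.78, 379 ± 6.20 and 407 ± 19.3 TPM, so the sum varied little while the mix of the 2 slits did.

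The Robo receptors were far below their ligands and highest in Fb-Par. Robo1 (ENSRNOG00000029614, chr11:9642365-10143317, plus strand) was at 3.39, 2.21 and 3.71 TPM in Fb-Epn, 13.0, 11.9 and 13.4 TPM in Fb-Par and 2.57, 4.51 and 3.59 TPM in Fb-Skn. Fb-Par stood above all other libraries, while Fb-Epn and Fb-Skn overlapped (-0.33 ± 0.19, adjusted p = 0.16). The level in Fb-Par was 4.10-fold above Fb-Epn (-2.04 ± 0.18 for Fb-Epn minus Fb-Par, adjusted p = 2.9e-08) and 3.26-fold above Fb-Skn (1.70 ± 0.18, adjusted p = 2.2e-07). Without Fb-Epn replicate 2 the first difference was -1.84, under the DE limit. Robo2 (ENSRNOG00000029598, chr11:11062790-11585765, minus strand) was at 11.7, 13.1 and 12.0 TPM in Fb-Epn, 19.6, 18.9 and 20.0 TPM in Fb-Par and 7.18, 8.77 and 9.08 TPM in Fb-Skn, with no overlap. It was 2.11-fold higher in Fb-Par than Fb-Skn (1.08 ± 0.07, adjusted p = 7.3e-14), 1.58-fold lower in Fb-Epn than Fb-Par (-0.66 ± 0.07, adjusted p = 1.6e-09) and 1.33-fold higher in Fb-Epn than Fb-Skn (0.42 ± 0.07, adjusted p = 1.3e-05).

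Netrin transcripts showed the widest swing in any role group, from a sum of 54.5 ± 0.504 TPM in Fb-Epn to 178 ± 7.53 TPM in Fb-Skn and 336 ± 6.72 TPM in Fb-Par (SD, n = 3). Ntn4 (ENSRNOG00000005573, chr7:34533543-34649481, plus strand), a netrin of basement membranes that binds laminin, was at 25.3, 28.6 and 24.5 TPM in Fb-Epn, 309, 303 and 294 TPM in Fb-Par and 54.7, 60.3 and 54.9 TPM in Fb-Skn. Every Fb-Par library lay far above the rest, and Fb-Epn was lowest. It was 11.4-fold lower in Fb-Epn than Fb-Par (-3.52 ± 0.06, adjusted p = 1.9e-28), 4.80-fold higher in Fb-Par than Fb-Skn (2.26 ± 0.05, adjusted p = 9.1e-25) and 2.38-fold lower in Fb-Epn than Fb-Skn (-1.25 ± 0.06, adjusted p = 8e-17). A gene on the other strand that overlaps Ntn4 had at most 2 counts in a library. The summed pericyte and smooth muscle markers had the same order, at 555 to 582, 284 to 298 and 108 to 112 TPM in Fb-Par, Fb-Skn and Fb-Epn. The single markers did not all share it. Of the 7, 4 were called higher in Fb-Epn than Fb-Skn and 3 lower. The part of this list in the result was not tested.

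Ntn1 (ENSRNOG00000003947, chr10:54761871-54967585, minus strand), the classical bifunctional guidance cue, was a skin transcript by comparison. It was at 26.9, 24.0 and 28.5 TPM in Fb-Epn, 30.0, 36.2 and 33.6 TPM in Fb-Par and 114, 121 and 126 TPM in Fb-Skn. It was 5.02-fold lower in Fb-Epn than Fb-Skn (-2.33 ± 0.08, adjusted p = 5.3e-21) and 4.03-fold lower in Fb-Par than Fb-Skn (-2.01 ± 0.07, adjusted p = 1e-19). The latter lay at the DE limit, at -1.93 without Fb-Par replicate 1 and -1.98 without Fb-Skn replicate 3. Between the nerve types it was 1.25-fold lower in Fb-Epn (-0.32 ± 0.08, adjusted p = 0.0018), and this did not pass without Fb-Epn replicate 2 (adjusted p = 0.022), without Fb-Par replicate 2 (adjusted p = 0.02) or with limma on log2(TPM + 1) (adjusted p = 0.01). The ratio of Ntn4 to Ntn1 was 0.996 ± 0.171 in Fb-Epn, 9.14 ± 1.02 for Fb-Par and 0.470 ± 0.0324 for Fb-Skn (TPM, SD, n = 3). Ntn3 was low, at 1.88, 0.957 and 0.564 TPM, across the types, and it was above the filter only in Fb-Epn, where it was highest.

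Of the netrin receptors, Unc5b was the one that set Fb-Par apart. Unc5b (ENSRNOG00000000567, chr20:30339673-30406295, minus strand), a receptor that mediates repulsion by Ntn1, was at 96.3, 91.4 and 90.3 TPM in Fb-Epn, 18.0, 20.0 and 20.4 TPM in Fb-Par and 98.3, 103 and 107 TPM in Fb-Skn. The Fb-Par libraries were far below the other 6. The level in Fb-Par was 5.85-fold lower than in Fb-Skn (-2.55 ± 0.05, adjusted p = 8.6e-27) and 4.80-fold lower than in Fb-Epn (2.26 ± 0.05 for Fb-Epn minus Fb-Par, adjusted p = 2e-25). Fb-Epn was 1.22-fold lower than Fb-Skn (-0.29 ± 0.04, adjusted p = 1.6e-06), but limma on log2(TPM + 1) did not call this (adjusted p = 0.054). Neo1, the gene of neogenin, a receptor of netrins and RGM proteins, was at 58.7, 61.8 and 85.9 TPM across Fb-Epn, Fb-Par and Fb-Skn, lower in both nerve types than in skin (adjusted p = 7.5e-13 and 5.6e-12) and not different by the test between them (-0.06 ± 0.05, adjusted p = 0.31). Unc5c was low, at 1.67, 3.63 and 1.31 TPM, and higher in Fb-Par than in the others (adjusted p = 8.3e-07 against Fb-Epn and 5.7e-08 against Fb-Skn). With Dcc at no more than 1 count and Unc5a at no more than 4, the netrin receptors that passed the filter were Unc5b, Neo1 and Unc5c. In Fb-Par the ligand Ntn4 was therefore high where Unc5b was low: Unc5b stood at 0.315 ± 0.0212 times Neo1 there, against 1.58 ± 0.0977 times in Fb-Epn and 1.20 ± 0.0850 times in Fb-Skn.

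**Figure D3:**
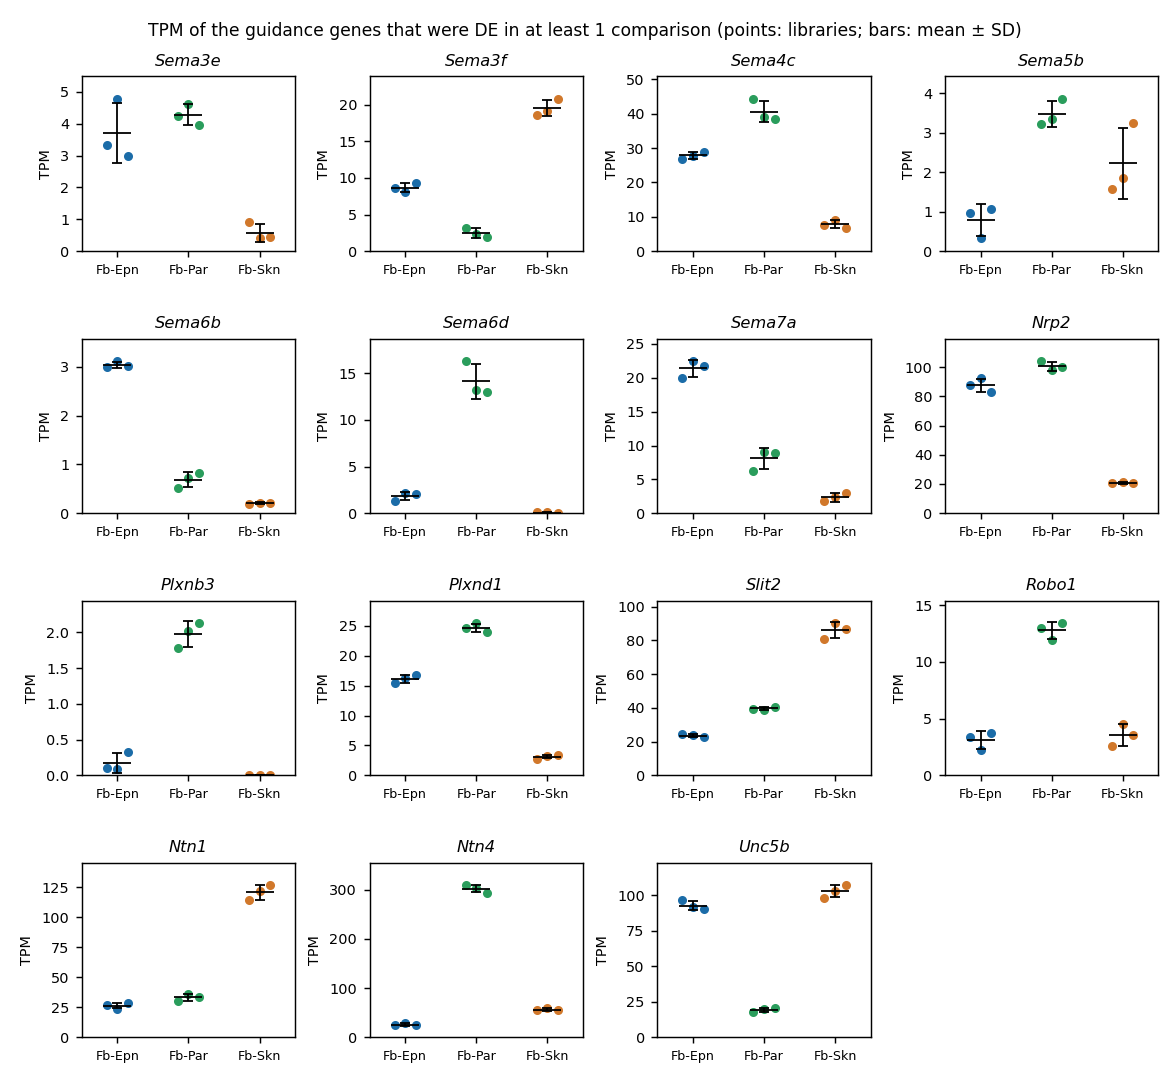
TPM in each library for the 15 members that were DE in at least 1 comparison, each panel with its own linear axis from 0. Points are libraries and black bars the mean ± SD of 3 samples; Ntn4, Sema6d, Plxnb3 and Robo1 are highest in Fb-Par, Sema6b and Sema7a in Fb-Epn, and Sema3f, Slit2 and Ntn1 in Fb-Skn, while Unc5b is low in Fb-Par.

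The repulsive guidance molecules, membrane-anchored ligands of neogenin, varied little. Rgma (ENSRNOG00000012874, chr1:134699299-134742514, plus strand) was at 37.4, 35.7 and 37.3 TPM in Fb-Epn, 31.7, 28.0 and 28.4 TPM in Fb-Par and 20.2, 22.6 and 21.9 TPM in Fb-Skn. The types did not overlap, with Fb-Epn 1.55-fold above Fb-Skn (0.63 ± 0.07, adjusted p = 7.9e-09), 1.26-fold above Fb-Par (0.33 ± 0.07, adjusted p = 0.00015) and Fb-Par 1.23-fold above Fb-Skn (0.30 ± 0.07, adjusted p = 0.0007). Rgmb was at 22.6, 30.6 and 27.5 TPM, lower in Fb-Epn than in both others (adjusted p = 0.0031 against Fb-Par and 0.0035 against Fb-Skn). The sums of Rgma and Rgmb were 59.5 ± 1.61, 60.0 ± 4.95 and 49.0 ± 2.39 TPM.

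**Figure D4:**
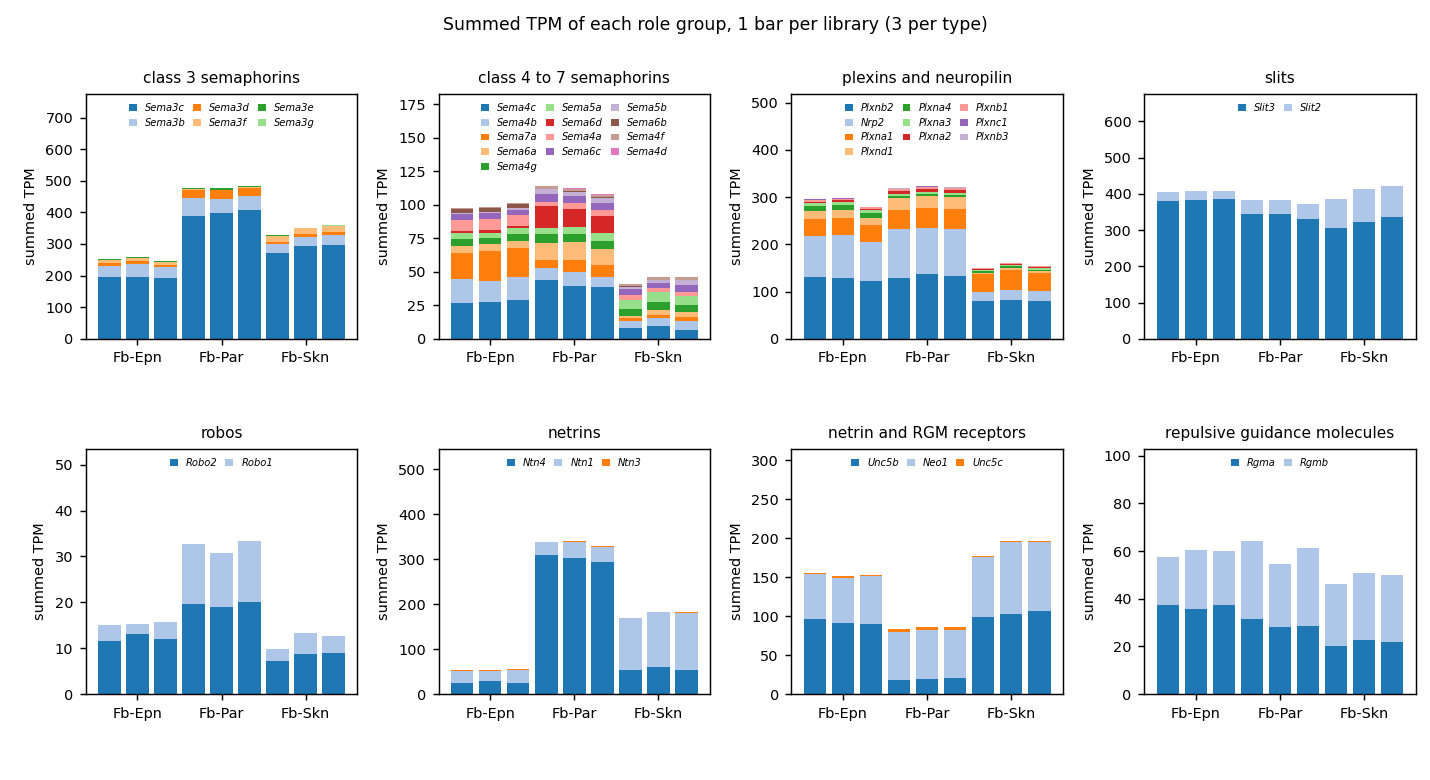
Stacked TPM of the tested members in each role group, 1 bar per library and 3 bars per type, with the y axis from 0. Sema3c, Slit3 and, in Fb-Par, Ntn4 fill most of their bars; the netrin sum is about 336 TPM in Fb-Par against 54.5 TPM in Fb-Epn, and the slit sums lie between 372 and 423 TPM in all 9 libraries.

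The share of the leading member varied little between the libraries of a type in the class 3 semaphorins and slits, and more in the robos. Sema3c held 77.0% ± 1.13, 82.9% ± 1.29 and 83.3% ± 0.624 of class 3 semaphorin TPM across Fb-Epn, Fb-Par and Fb-Skn (SD, n = 3). Slit3 held 94.2% ± 0.273, 89.5% ± 0.395 and 78.9% ± 0.652 of the slits. Ntn4 held 48.0% ± 3.99, 89.8% ± 1.00 and 31.9% ± 1.51 of the netrins. Unc5b held 60.5% ± 1.41, 22.9% ± 1.11 and 54.1% ± 1.66 of the netrin and RGM receptors. Robo2 held 79.8% ± 4.98, 60.5% ± 0.796 and 70.5% ± 3.97 of the robos, and from 76.4% to 85.5% within Fb-Epn. Sema4c held 28.0% ± 0.460, 36.4% ± 2.04 and 17.9% ± 2.66 of class 4 to 7 semaphorin TPM. The stacked bars show these shares for each library.

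Other genes of the pathways were read from 3 lists, mostly of effectors that link plexins, Robos and Dcc to the cytoskeleton; the netrin-DCC list also holds the netrin relatives Ntng1 and Ntng2. Of 47 tested genes on these lists, 31 (66.0%) passed the adjusted p between Fb-Epn and Fb-Skn (17 higher, 14 lower), 32 (68.1%) between Fb-Par and Fb-Skn (19 higher, 13 lower) and 26 (55.3%) between Fb-Epn and Fb-Par (9 higher, 17 lower), against 46.0%, 47.4% and 41.1% of all tested genes. The semaphorin-plexin list had 16, 15 and 13 of 22 in these comparisons, the slit-robo list 11, 11 and 7 of 16, and the netrin-DCC list 6, 8 and 8 of 12. The slit-robo share between the nerve types (7 of 16) and the netrin-DCC share between Fb-Epn and Fb-Skn (6 of 12) lay near those of all genes. DE genes among the 47 were 5 (10.6%), 6 (12.8%) and 2 (4.26%), against 8.45%, 8.54% and 6.41% of all tested genes. Their median log2 fold change, sign ignored, was 0.428, 0.384 and 0.245, against 0.327, 0.344 and 0.285. Between the nerve types, both values were thus below those of all tested genes. All 6 netrin-DCC genes that passed between Fb-Epn and Fb-Skn were higher in Fb-Epn, and 7 of the 8 that passed between Fb-Par and Fb-Skn were higher in Fb-Par, where 24.1% of all genes were called higher in each comparison. The summed level of the netrin-DCC list was 838 to 859 TPM in Fb-Epn, 896 to 922 TPM in Fb-Par and 669 to 711 TPM in Fb-Skn. Pitpna alone had means of 325, 399 and 285 TPM in that order, a large part of each sum.

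Rnd1, a small GTPase that binds plexins, was at 40.5 ± 1.38 TPM in Fb-Epn, 5.31 ± 0.574 TPM in Fb-Par and 3.08 ± 0.495 TPM in Fb-Skn (SD, n = 3). It had the largest increase of these lists in Fb-Epn, with a log2 fold change of 3.56 ± 0.15 against Fb-Skn (adjusted p = 4.6e-18) and 2.94 ± 0.14 against Fb-Par (adjusted p = 7.8e-17). Srgap3, a GTPase-activating protein of the slit-robo pathway, was at 2.03 ± 0.249, 3.45 ± 0.238 and 0.168 ± 0.0485 TPM across Fb-Epn, Fb-Par and Fb-Skn. It was higher in Fb-Epn than Fb-Skn (3.43 ± 0.29, adjusted p = 2.5e-11) and in Fb-Par than Fb-Skn (4.19 ± 0.28, adjusted p = 1.2e-13). Ntng1, a lipid-anchored netrin relative that does not bind Dcc, was at 15.7 ± 0.972 TPM in Fb-Par against 0.944 ± 0.0625 TPM in Fb-Epn and 0.962 ± 0.0877 TPM in Fb-Skn. It thus stood highest in Fb-Par, as Ntn4 did, with log2 fold changes of 3.88 ± 0.16 over Fb-Skn (adjusted p = 1.3e-18) and -4.04 ± 0.16 for Fb-Epn minus Fb-Par (adjusted p = 5e-19).

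Against Fb-Skn, the largest decreases among the effectors were smaller than the largest increases. Mical1, an oxidase that disassembles actin downstream of plexins, was lower in Fb-Epn than Fb-Skn (25.6 ± 0.496 against 69.5 ± 2.70 TPM; -1.58 ± 0.06, adjusted p = 3.8e-20). Farp2, an exchange factor released by Sema3a signalling, was lower than in Fb-Skn (58.0 ± 2.14 TPM) in both Fb-Epn (25.8 ± 1.35 TPM; -1.31 ± 0.06, adjusted p = 4.7e-18) and Fb-Par (31.7 ± 0.693 TPM; -1.02 ± 0.06, adjusted p = 1.1e-15). Dpysl3, a collapsin response mediator, was lower in Fb-Par than Fb-Skn (166 ± 2.22 against 292 ± 20.5 TPM; -0.96 ± 0.04, adjusted p = 1.3e-18). Between the nerve types, Crmp1 of the same family was lower in Fb-Epn (1.34 ± 0.169 against 3.01 ± 0.726 TPM; -1.16 ± 0.31, adjusted p = 0.0028), and Pak1, a kinase of the slit and netrin pathways, was higher there (85.3 ± 2.65 against 57.5 ± 2.37 TPM; 0.58 ± 0.05, adjusted p = 6.3e-11).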

How the data were processed

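RNA sequencing covered 9 libraries, 3 for each type of Fb, grouped by their titles. Per the labels, libraries were directional and poly(A)-selected, with paired-end reads of 150 bp. The submitters' processing notes name FastQC 0.11.7, Trimmomatic 0.38, HISAT2 2.1.0, featureCounts 1.6.3 and rn6; the annotation release and the strand setting of counting are not given in the sources used here. The authors deposited raw counts per gene, TPM, and FPKM, which was not used. Of the 48 members, 12 overlap another gene, 6 of them on the other strand, and those partners had at most 16 counts in a library. No gene of the counts lacked a name.

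Tests on the counts used edgeR 4.0.16 in R 4.3.3 (default filter with a minimum count of 10, TMM factors of 0.955 to 1.03, robust quasi-likelihood fit and F test, 1 model of all 9 libraries), with Benjamini-Hochberg adjustment over 13273 genes, a threshold of 0.01, and for DE genes a log2 fold change above 2 or below -2. Floors cover counting error only, whereas SE from the fit and SD over libraries also hold the spread between the samples of a type. As edgeR reports no SE, it was taken as the absolute log2 fold change divided by the square root of F. An exact permutation test of 3 against 3 samples cannot give a two-sided p under 0.1. Described in full are members that were DE in at least 1 comparison or had the highest mean TPM of their role group; effectors are named for the 2 largest changes in each direction. Members and lists were chosen with earlier results of these data known, and support nothing by their choice. Alternatives were other scalings, DESeq2 1.42.0, limma 3.58.1 on log2(TPM + 1) and log2(TPM + 0.1), other filters, a replicate block, a test against the DE limit and leaving out each library. Simulated data served to check the edgeR steps. Promoters come from RefSeq (GRCr8). Tables and plots used Python 3.11.15, pandas 2.3.3, numpy 2.4.6 and matplotlib 3.10.9. 1 Schwann cell marker is not reported here.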

Additional observations from a re-analysis of the deposited data

How the results depend on the processing

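Single differences were compared across the alternatives only for the members described in full. The other tested members entered only the counts and medians. Of 1126 such recomputed differences, 1113 kept their direction and their side of the adjusted p, 10 lost the call and 3 changed sign. All 3 were for Slit3 between Fb-Par and Fb-Skn, which was not called: 0.027 with library size only and 0.083 with limma on log2(TPM + 1) or log2(TPM + 0.1). The calls lost were those of Plxnb3, Unc5b and Sema5b between Fb-Epn and Fb-Skn, Sema6b between Fb-Par and Fb-Skn and Ntn1 between the nerve types. Members past the adjusted p numbered 25 to 32, 24 to 30 and 27 to 33 over the alternatives for Fb-Epn against Fb-Skn, Fb-Par against Fb-Skn and Fb-Epn against Fb-Par. DE members numbered 4, against 8, between Fb-Epn and Fb-Skn with limma on log2(TPM + 1), with at least 10 counts in every library and with edgeR's test against a log2 fold change of 2 (glmTreat), which also gave 6, against 10, between Fb-Par and Fb-Skn, and 4, against 7, between the nerve types, where the first 2 settings gave 3. The filter on every library leaves fewer genes to test, and a pseudocount of 1 shrinks differences of genes near 1 TPM. The median log2 fold change of the members moved from 0.417 between Fb-Epn and Fb-Skn to 0.277 with log2(TPM + 1), 0.536 with log2(TPM + 0.1), 0.218 with at least 10 counts in every library and 0.275 with only these types in the fit. Between Fb-Par and Fb-Skn it moved from 0.576 to 0.671 with library size only, 0.495 and 0.725 with the 2 pseudocounts, 0.457 with all genes of at least 1 count, 0.370 with at least 10 counts in every library and 0.486 with only these types. Without 1 library each, these medians ranged from 0.294 to 0.478 and from 0.381 to 0.656, and DE members from 7 to 8, 10 to 11 and 5 to 7 in the 3 comparisons. Medians stayed positive against Fb-Skn and negative between the nerve types; beyond these settings the cause of a shift was not tested. Equal replicate numbers did not pair the samples (correlations of deviations from -0.0804 to 0.0198), and with the number as a replicate block 30, 28 and 30 members passed. Depth limits the members under 10 counts in a type, among them Sema6b, Sema6d and Plxnb3 in Fb-Skn.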
